A study of Rattus norvegicus with 11 samples.

Results

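The microRNAs described here are miR-101a, miR-101b and miR-374 in rat liver. They were chosen by their measured level, which varied strongly between rats within both groups. All rows whose name begins with one of the 3 names were taken, which gave 6 of the 1331 rows of the table, the 5p and the 3p arm of each microRNA. The abundant arms are rno-miR-101a-3p, rno-miR-101b-3p and rno-miR-374-5p. Of the 6 rows, 4 averaged at least 1 CPM (counts per 1000000 reads of a library) and entered the tests. The arms rno-miR-101a-5p and rno-miR-101b-5p did not. Because the spread between rats chose the rows, that spread and the correlations between the rows are given as descriptions without a test.

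Small RNA was sequenced from the livers of male rats of the outbred Sprague-Dawley stock, aged 4 weeks. The TPN group (n = 5, rats 6, 8, 11, 15 and 16) received total parenteral nutrition, in which all nutrients enter through a vein, for 7 days. The Control group (n = 6, rats 5, 7, 12, 16, 18 and 19) ate chow and had 0.9% saline infused intravenously over the same time. Each library is named here by its group and rat number, and TPN 16 and Control 16 are separate libraries. The label of liver was checked against miR-122-5p, the microRNA that marks hepatocytes, which made up between 2.18% (Control 19) and 33.5% (Control 18) of the reads.

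The reads of a library are here those recovered over all rows of the table, and the reads sequenced are not known. They numbered from 1404858 (Control 12) to 14788757 (TPN 8). In Control 5, Control 12 and Control 19, rows named as predicted microRNAs took 0.517%, 2.0% and 0.560% of all reads, while the other 8 libraries had 0.0965% to 0.145%. The correlations between rows and the differences between groups are also given without these 3 libraries. The rows are from bulk tissue, in which fewer cells of a type and less RNA per cell cannot be told apart.

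A microRNA is cut from a hairpin transcript as a short duplex, and usually one arm is kept in the silencing complex while the other is degraded. The kept arm pairs with messenger RNAs mainly through its seed, bases 2 to 8. miR-101 is known to repress Ezh2, the methyltransferase that places the repressive histone mark H3K27me3, a role described mostly in human tumour cells, liver cancer among them. miR-374 is carried on the X chromosome in the region of Ftx, a long noncoding RNA of the X-inactivation centre in mouse.

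The mature sequences are shown because the miR-101 rows differ so little that reads could be assigned to either. They were taken from RefSeq (GRCr8), 5′ to 3′, with the seed in capitals.
rno-miR-101a-3p: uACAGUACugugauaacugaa
rno-miR-101b-3p: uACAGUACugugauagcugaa
rno-miR-144-3p: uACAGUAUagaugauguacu
rno-miR-374-5p: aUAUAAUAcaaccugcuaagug
rno-miR-374-3p: cUUAGCACguuguauuauuauu
miR-101a-3p and miR-101b-3p differed at 1 of 21 bases, A16G (the base of miR-101a-3p first, position counted from 1 at the 5′ end), which lies outside the seed. How the authors divided reads between such near-identical sequences is not given in the sources used here, so the split between both rows is uncertain while their sum is less so. Among 481 rat-named rows with a sequence, no other row had the seed of miR-101, and none had that of either miR-374 arm. miR-144-3p, a microRNA of red cells, had bases 2 to 7 of miR-101 and differed from miR-101a-3p at the last seed base (C8U).

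The hairpins are shown to place both arms, which are in capitals, 5′ on the left. The deposited table names no build, and the positions are those of RefSeq on GRCr8.
Mir101-2 (miR-101b): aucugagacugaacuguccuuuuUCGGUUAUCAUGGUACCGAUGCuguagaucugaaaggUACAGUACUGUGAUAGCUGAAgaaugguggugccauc
Mir101a (miR-101a): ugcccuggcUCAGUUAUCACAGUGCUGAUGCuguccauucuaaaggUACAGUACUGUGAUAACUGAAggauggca
Mir374b (miR-374): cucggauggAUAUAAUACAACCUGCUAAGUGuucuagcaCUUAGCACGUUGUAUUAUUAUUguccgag
Mir101-2 lies on chr1:236273922-236274018, plus strand, within the span of the protein-coding gene Rcl1. Mir101a lies on chr5:121081683-121081757, minus strand, within the noncoding gene LOC120102934. Mir374b lies on chrX:72657495-72657562, minus strand, within the annotated spans of the noncoding genes Jpx and Ftx, and its nearest microRNA gene, Mir421, is 77 bases away. The 3 hairpins are thus on separate chromosomes.

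miR-101b-3p was the most abundant of the rows and had its highest and lowest level in Control rats. It stood at 65476 CPM in TPN 6, 39256 in TPN 8, 14482 in TPN 11, 15288 in TPN 15 and 16596 in TPN 16. In Control rats the lowest level was 14201 CPM (Control 16), the median 35506 and the highest 130030 (Control 19). Every TPN level lay within the Control range. The highest rat exceeded the lowest 4.52-fold among TPN rats and 9.16-fold among Control rats.

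miR-101a-3p ran through the rats in nearly the same order at a much lower read number. It stood at 8284 CPM in TPN 6, 4217 in TPN 8, 1345 in TPN 11, 1506 in TPN 15 and 1722 in TPN 16. In Control rats it ranged from 1306 CPM (Control 16) over a median of 3523 to 14513 (Control 19). The groups overlapped throughout, and the highest rat exceeded the lowest 6.16-fold among TPN rats and 11.1-fold among Control rats. Both miR-101 rows together made up 7.38% of all reads in TPN 6 and 1.58% in TPN 11, and 14.5% in Control 19 and 1.55% in Control 16.

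miR-374-5p was far less abundant and followed a partly different order. It stood at 382 CPM in TPN 6, 326 in TPN 8, 127 in TPN 11, 151 in TPN 15 and 128 in TPN 16. In Control rats it ranged from 151 CPM (Control 12) over a median of 240 to 514 (Control 5). Control 19, the highest rat for both miR-101 rows, had 291 CPM of miR-374-5p, less than TPN 6, TPN 8, Control 5 and Control 7. TPN 11 and TPN 16 lay below every Control rat, and TPN 15 lay below Control 12 by less than the worth of 1 read in Control 12 (0.712 CPM).

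**Figure D1:**
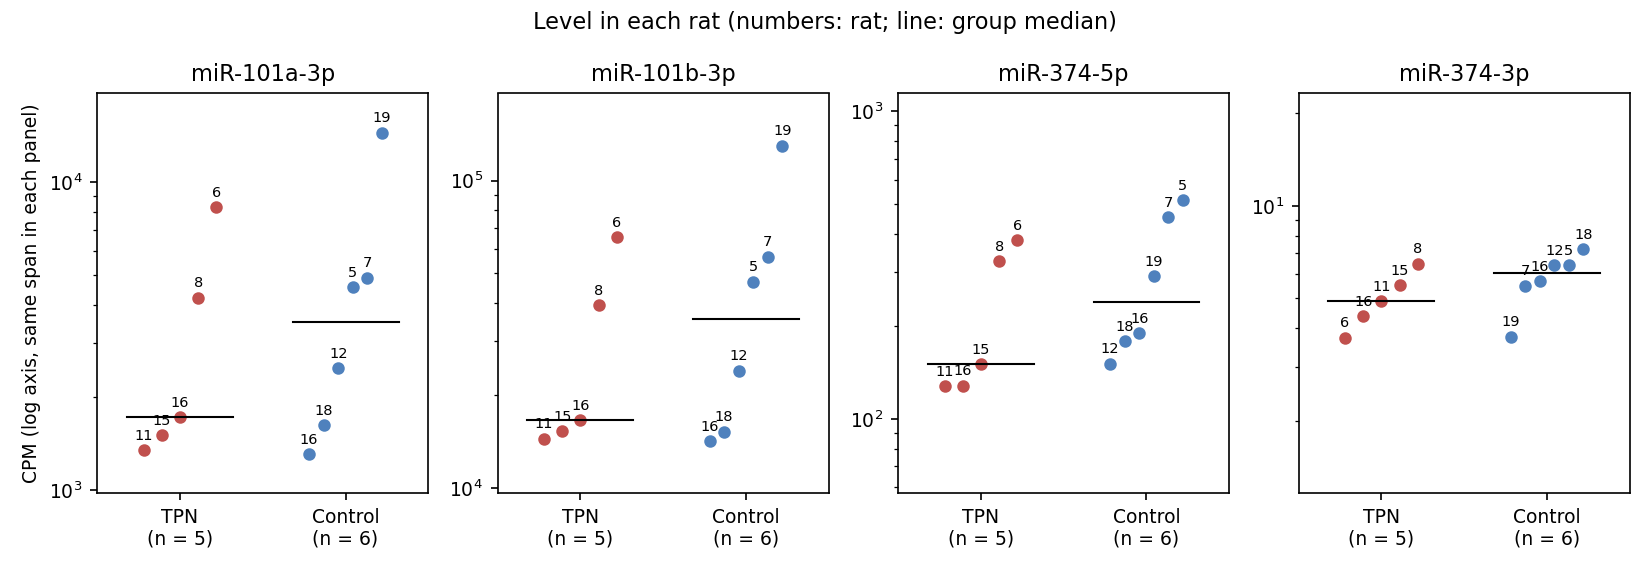
Level of each of the 4 tested rows in every liver, in CPM on a log axis, with TPN rats left of Control rats and each point labelled by its rat number. miR-101a-3p and miR-101b-3p spread widely in both groups with Control 19 on top (14513 and 130030 CPM), whereas miR-374-3p stays between 3.73 and 7.24 CPM.

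miR-374-3p, the other arm of the miR-374 hairpin, was rare and even. It stood at 3.73 CPM in TPN 6, 6.49 in TPN 8, 4.90 in TPN 11, 5.51 in TPN 15 and 4.37 in TPN 16. In Control rats it ranged from 3.75 CPM (Control 19) over a median of 6.05 to 7.24 (Control 18). The rats with the most miR-101 in each group, TPN 6 and Control 19, were the rats with the least miR-374-3p. These levels rest on 9 reads (Control 12) to 96 reads (TPN 8), and in Control 12 the exact 95% interval ran from 2.93 to 12.2 CPM. The interval was 2.55 to 5.26 CPM in TPN 6 and 1.87 to 6.72 CPM in Control 19. Both overlap the intervals of other rats of the same group, so the order of miR-374-3p levels is uncertain.

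The 5p arms of miR-101 were at the limit of detection. miR-101a-5p had 0 to 6 reads in TPN rats and 0 to 3 reads in Control rats. miR-101b-5p had no read in 4 of 5 TPN rats and in 3 of 6 Control rats, and at most 2 reads elsewhere. A count of 0 allows up to 0.359 CPM in TPN 15 and up to 2.14 CPM in Control 12, so neither arm can be compared between rats. Neither arm exceeded 0.698 CPM in any rat, while the 3p arms were never below 1306 CPM.

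In the order of levels over both groups, the widest step between neighbouring rats was 1.99-fold for miR-101b-3p and 1.75-fold for miR-101a-3p. Both steps lay between Control 19 and TPN 6. For miR-374-5p the widest step was 1.53-fold, between Control 19 and Control 16. The low end held TPN 16, TPN 15, TPN 11, Control 18 and Control 16 for miR-101b-3p, all from 14201 to 16596 CPM.

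Levels also went with the rat number in the labels. The 4 rats numbered below 10 (TPN 6, TPN 8, Control 5 and Control 7) had 39256 to 65476 CPM of miR-101b-3p. Of the 7 rats numbered 10 or more, 6 had 14201 to 24087 CPM, and Control 19 had 130030 CPM. For miR-374-5p the rats numbered below 10 had 326 to 514 CPM, above the 127 to 291 CPM of all the others. The labels name no batch and do not say what the numbers stand for, and their part in the spread was not tested.

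The spread between rats was summarised as the residual standard deviation (SD) of log2(CPM + 1) around the group means. It was 1.21 for miR-101a-3p, 1.13 for miR-101b-3p, 0.75 for miR-374-5p and 0.27 for miR-374-3p, each over 11 rats. As a factor on the CPM scale these are 2.32, 2.19, 1.68 and 1.20. Among 168 rat-named rows that averaged at least 10 CPM, the median SD was 0.51, and miR-101a-3p had rank 6 from the top, miR-101b-3p rank 8 and miR-374-5p rank 33. Without Control 19 and TPN 6 the SD was 0.81 for miR-101a-3p and 0.82 for miR-101b-3p. Without Control 5, Control 12 and Control 19 it was 1.10, 1.03 and 0.76 for miR-101a-3p, miR-101b-3p and miR-374-5p.

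**Figure D2:**
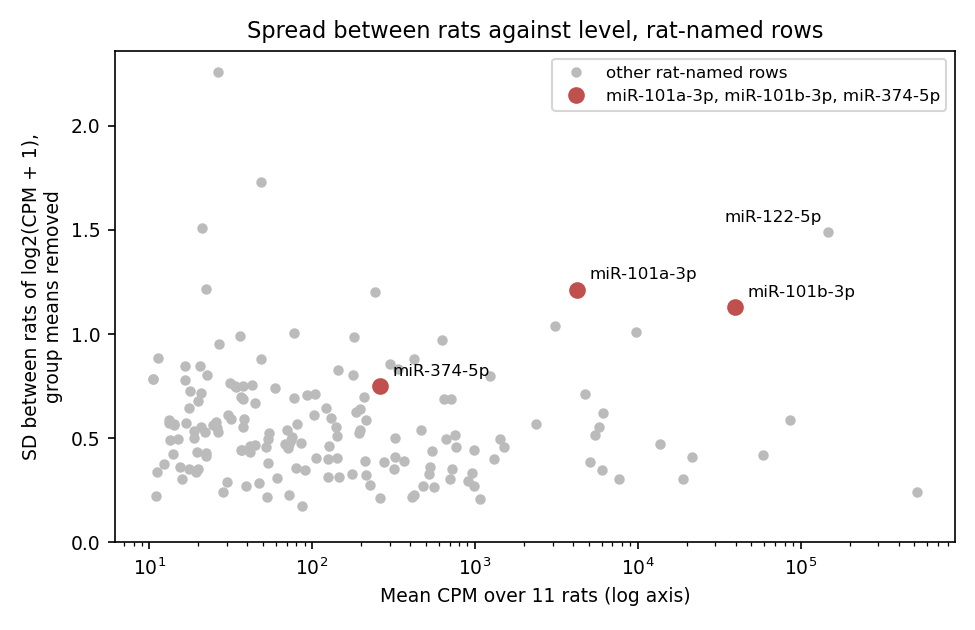
Residual SD of log2(CPM + 1) between rats against mean CPM (log axis) for the rat-named rows that averaged at least 10 CPM. miR-101a-3p (1.21) and miR-101b-3p (1.13) lie near the top and miR-374-5p (0.75) lower, against a median SD of 0.51.

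The miR-101 rows moved together. Group-centred log2 levels of miR-101a-3p and miR-101b-3p had a Pearson r of 0.994 over 11 rats, and their levels a Spearman rho of 0.991. Without the rats farthest from the median, Control 19 and TPN 6, r was 0.991, and it was 0.990 over the 8 rats left without Control 5, Control 12 and Control 19. The reads of both rows come from the same libraries and may have been divided between them by the authors' counting, so the rows are not independent measurements.

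miR-374-5p followed miR-101 less closely. Its r was 0.742 with miR-101a-3p (rho 0.691) and 0.767 with miR-101b-3p (rho 0.673), again over 11 rats. Without Control 19 and TPN 6 these were 0.876 and 0.890. Without Control 5, Control 12 and Control 19, the libraries rich in predicted microRNAs, they were 0.968 and 0.979 over 8 rats.

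Ratios of reads within a library do not depend on how libraries are scaled. For every 100 reads of miR-101b-3p there were 12.7 reads of miR-101a-3p in TPN 6, 10.7 in TPN 8, 9.29 in TPN 11, 9.85 in TPN 15 and 10.4 in TPN 16. The Control rats had 8.66 (Control 7) to 11.2 (Control 19). The highest ratio was 1.46 times the lowest, a far narrower range than that of either row. Counting error was small beside it: miR-101a-3p was 11.2% of the miR-101 3p reads in TPN 6 (exact Clopper-Pearson 95% interval 11.2% to 11.3%) and 7.97% in Control 7 (7.90% to 8.04%). Between groups the log2 ratio differed by 0.086 (TPN minus Control), a difference that missed the threshold of a 2-sided exact permutation test over all 462 regroupings (p = 0.390, adjusted p = 0.697 over 2 ratios). It was 0.019 without TPN 6, 0.047 without Control 7, 0.131 without TPN 11 and 0.152 without Control 5, Control 12 and Control 19.

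The arms of miR-374 did not keep a constant ratio. Reads of miR-374-5p per read of miR-374-3p were 102 in TPN 6, 50.2 in TPN 8, 26.0 in TPN 11, 27.4 in TPN 15 and 29.3 in TPN 16. Control 5, Control 7 and Control 19 had 80.04, 82.3 and 77.5, and Control 12, Control 16 and Control 18 had 23.6, 33.3 and 24.7. The highest ratio was 4.35 times the lowest, and the 5 rats highest in miR-101b-3p were the 5 rats with the highest arm ratio. Over all rats miR-374-3p varied 1.94-fold and miR-374-5p 4.03-fold. The ratio thus largely repeats the level of miR-374-5p, a row chosen for its spread, and is not a separate result. The 5p arm took 99.0% of miR-374 reads in TPN 6 (exact 95% interval 98.6% to 99.3%) and 95.9% in Control 12 (92.4% to 98.1%). Levels of both arms had an r of -0.151 over 11 rats of -0.048 without Control 5 and TPN 6, and of -0.192 without Control 5, Control 12 and Control 19. The log2 arm ratio differed by -0.20 (TPN minus Control), which did not pass the exact permutation test (p = 0.697, adjusted p = 0.697, smallest possible p 0.00216). Single rats moved it much: it was -0.53 without TPN 6, -0.39 without Control 12 and -0.38 without Control 18, and lay between -0.033 and -0.083 without any one of Control 7, TPN 11, Control 5, Control 19, TPN 15 or TPN 16. It was -0.014 without Control 5, Control 12 and Control 19 together.

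**Figure D3:**
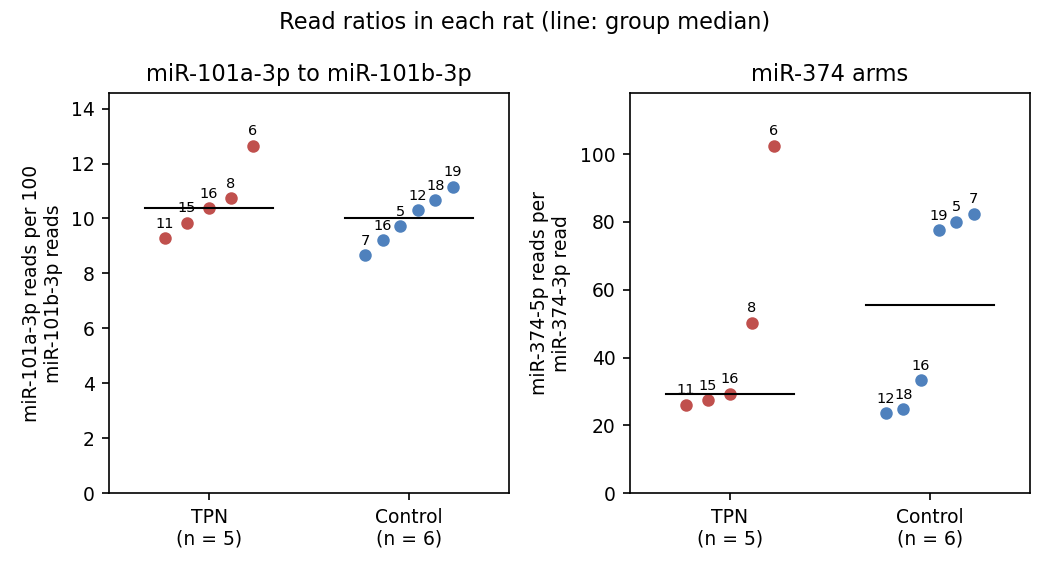
Read ratios within each library, with TPN rats left of Control rats and points labelled by rat number: reads of miR-101a-3p per 100 reads of miR-101b-3p, and reads of miR-374-5p per read of miR-374-3p. The first ratio stays between 8.66 and 12.7, and the second runs from 23.6 to 102.

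Other microRNAs shared this pattern across rats. Likeness was measured as the r of a row with the mean of the group-centred log2 levels of miR-101a-3p, miR-101b-3p and miR-374-5p over 11 rats. These 3 had an r of 0.982, 0.988 and 0.854 with that mean, of which each is a part, and miR-374-3p had -0.504. Of the 165 other rat-named rows that averaged at least 10 CPM, 24 had an r of at least 0.9, 11 had one of -0.9 or below, and the median was 0.21. The first principal component of all 168 rows held 56.6% of the group-centred variance, and its r with the mean of the 3 rows was 0.982 in size. Over the 8 rats left without Control 5, Control 12 and Control 19, 28 rows had an r of at least 0.9 (19 of them among the 24) and 14 had one of -0.9 or below (all 11 among them), with a median of 0.44, and the first component held 61.3% of the variance. As all values come from the same 11 libraries and share their scaling, this is a description of the table and not of separate events.

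The 5 most similar rows were miR-30a-5p (r = 0.989), miR-322-5p (0.979), miR-542-3p (0.977), miR-802-5p (0.960) and miR-143-3p (0.953). The mature sequences of the first 3 are shown with the seed in capitals, since none has the seed of miR-101 or miR-374.
rno-miR-30a-5p: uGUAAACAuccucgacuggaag
rno-miR-322-5p: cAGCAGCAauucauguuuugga
rno-miR-542-3p: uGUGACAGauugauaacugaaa
miR-30a-5p belongs to a family that is abundant in many epithelia. It stood at 15265 CPM in TPN 6, 9787 in TPN 8, 3456 in TPN 11, 4223 in TPN 15 and 4057 in TPN 16, and in Control rats at 3992 (Control 18) to 28320 CPM (Control 19) with a median of 10013. As for miR-101, TPN 6 was the highest TPN rat and Control 19 the highest rat of all.

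miR-322-5p, the rodent counterpart of human miR-424, and miR-542-3p have their genes near each other on the X chromosome. miR-322-5p ran from 6.41 CPM (TPN 11) to 25.0 CPM (TPN 6) in TPN rats and from 8.24 CPM (Control 18) to 36.2 CPM (Control 19) in Control rats. miR-542-3p ran from 17.7 to 61.5 CPM in TPN rats and from 24.1 to 82.6 CPM in Control rats. miR-802-5p, which acts on glucose metabolism in mouse liver, had its lowest level in Control 16 (17.2 CPM) and its highest in Control 19 (58.7 CPM). miR-143-3p, a microRNA of smooth muscle and fibroblast-like cells, ran from 12286 CPM (TPN 11) to 27212 CPM (TPN 6) in TPN rats and from 18100 to 36368 CPM in Control rats.

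The 3 most opposite rows were miR-671 (r = -0.992), miR-122-5p (-0.982) and miR-674-3p (-0.950). For these, r was -0.972 to -0.996 without Control 5, Control 12 and Control 19, and it was 0.950 to 0.991 for the 5 most similar rows. miR-122-5p stood at 25379 CPM in TPN 6, 50451 in TPN 8, 206271 in TPN 11, 227726 in TPN 15 and 176805 in TPN 16. In Control rats it ranged from 21802 CPM (Control 19) over a median of 96900 to 335322 (Control 18). The rats rich in miR-101 were those poor in miR-122-5p in both groups. miR-671 was lowest in Control 19 (3.75 CPM) and highest in Control 16 (46.8 CPM), and miR-674-3p likewise ran from 33.4 to 149.8 CPM. Very abundant rows shift the CPM of all others. With miR-148a-3p and miR-122-5p both left out of the totals, the SD was 1.05 for miR-101a-3p, 0.96 for miR-101b-3p, 0.62 for miR-374-5p and 0.43 for miR-374-3p, against 1.21, 1.13, 0.75 and 0.27 with the deposited totals.

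**Figure D4:**
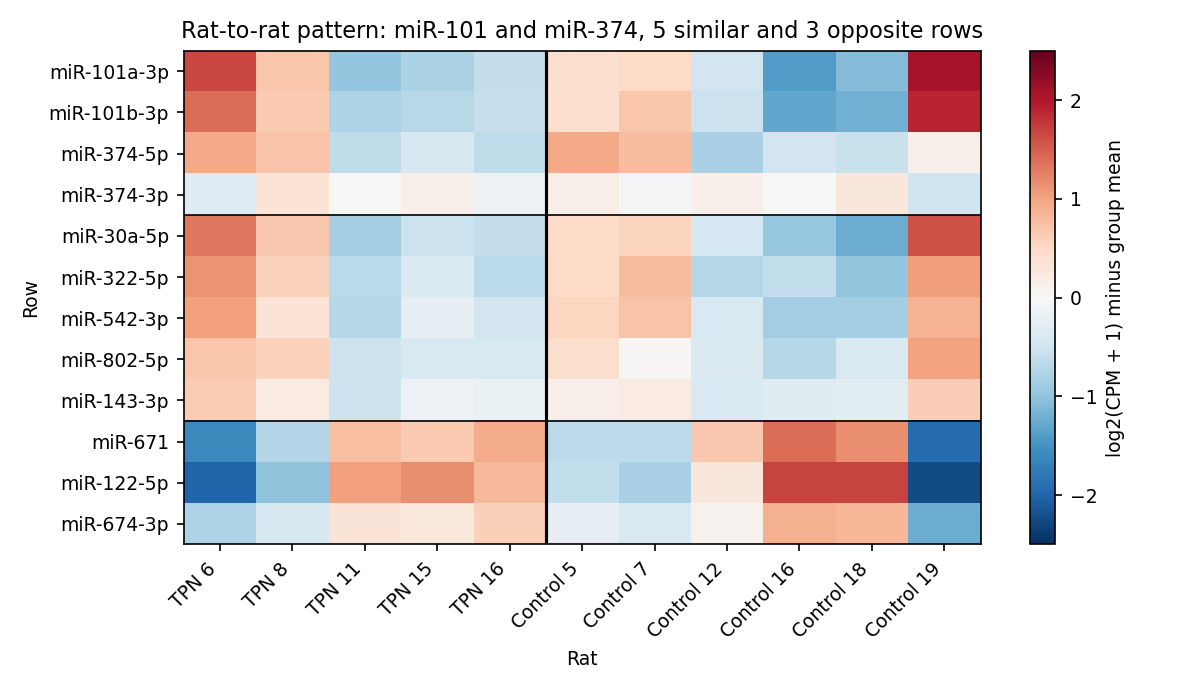
Group-centred log2(CPM + 1) of miR-101a-3p, miR-101b-3p, both miR-374 arms, the 5 most similar and the 3 most opposite rows (rows of the map) in each rat (columns, TPN rats left of Control rats), with colour giving the difference from the group mean. Control 19 and TPN 6 are high in the miR-101 rows and low in miR-671 and miR-122-5p, and miR-374-3p shows little colour.

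The mean of the 3 rows had an r of -0.011 with log2 reads per library and of -0.081 with the share of predicted microRNAs over 11 rats. Without Control 5, Control 12 and Control 19, the 3 libraries with the fewest reads, its r with log2 reads was 0.572 over 8 rats. The part of depth in the spread was not tested. The abundant arms are poor in G and C: the GC content was 33.3% for miR-101a-3p, 38.1% for miR-101b-3p and 31.8% for miR-374-5p, against a median of 45.5% among the 147 of 168 rows with a matched sequence. Across those rows, GC content had an r of -0.11 with likeness to the 3 rows. Of the 29 other rows with at most 38.1% GC, 16 had a positive r, a share like that of all 165 other rows (92, or 55.8%). The mean level of these 29 rows had an r of 0.619 with the 3 rows. That mean level was highest in Control 7 (0.39 above the group mean on the log2 scale) and was -0.10 in Control 19, the rat highest in miR-101. The part of base composition in the spread was not tested.

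Markers of liver cell types differed in how they went with the pattern. For comparison, 92 of the 165 other rat-named rows averaging at least 10 CPM (55.8%) had a positive r. The tested list rows average at least 1 CPM, so some lie below the level of the rows in this share. The hepatocyte list (miR-122, miR-192, miR-194 and miR-802, 8 rows) had 5 rows with a positive and 3 with a negative r, from -0.982 to 0.960. Its summed level was 66369 to 295987 CPM in TPN rats and 54078 to 413499 CPM in Control rats. That sum had an r of -0.970 with the pattern, opposite to the sign of most of its rows. Its row with the highest mean level, miR-122-5p, had -0.982. The list of stellate cells, fibroblasts and smooth muscle (miR-143, miR-145, miR-199a and miR-214, 7 rows) had 5 positive and 2 negative, with sums of 12710 to 28086 CPM in TPN rats and 18657 to 37661 CPM in Control rats. All 3 tested red cell rows (of miR-451 and miR-144) were positive, from 0.486 to 0.917, with sums over the list of 31.3 to 261 CPM in TPN rats and 133 to 802 CPM in Control rats. The r of the summed level was 0.951 for the list of stellate cells, fibroblasts and smooth muscle and 0.917 for the red cell list. Each of these sums is mostly 1 row, so its r is not that of the list. These rows are miR-143-3p (mean 21626 CPM, r = 0.953) and miR-451-5p (mean 243 CPM, r = 0.917). Single rows of the first list ran from -0.819 to 0.953.

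Of the 8 tested rows of blood and immune cells, 5 had a positive r, with sums of 450 to 782 CPM in TPN rats and 505 to 1150 CPM in Control rats. Of the 7 tested biliary and epithelial rows (the miR-200 family), 2 were positive, with sums of 584 to 1759 CPM in TPN rats and 509 to 1230 CPM in Control rats. The endothelial miR-126a had one arm on each side: miR-126a-5p had an r of 0.944 and miR-126a-3p of -0.877, with sums of 3162 to 6568 CPM in TPN rats and 2019 to 6849 CPM in Control rats. The r of the summed level was 0.197 for blood and immune, -0.228 for biliary and epithelial and -0.867 for endothelial rows. A positive r was found, without Control 5, Control 12 and Control 19, for 6 of 8 hepatocyte rows, 6 of 7 stellate, fibroblast and smooth muscle rows, 3 of 3 red cell rows, 5 of 8 blood and immune rows, 5 of 7 biliary and epithelial rows and 1 of 2 endothelial rows. Over the same 8 rats, 107 of the 165 other rat-named rows averaging at least 10 CPM had a positive r. Most of the list counts stand near that share, which leaves out the list rows below 10 CPM. No marker row was at 0 in every rat. The part of cell makeup in the spread of miR-101 and miR-374 was not tested.

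miR-421 is the neighbour of miR-374 on the X chromosome. Both its arms together summed to 0.662 to 1.83 CPM in TPN rats and 1.02 to 7.12 CPM in Control rats, a level of few reads per library, and miR-421-5p was too low to be tested. The r of miR-421-3p with the 3 rows was -0.139, and 0.439 without Control 5, Control 12 and Control 19. A further list holds 19 rows of other microRNAs known to repress Ezh2 (miR-26, miR-138, miR-214 and let-7 members). It takes either arm of each, so some rows are less abundant arms, for which no action on Ezh2 is claimed here. Of the 19 rows 15 were tested, of which 7 had a positive and 8 a negative r. Their r ran from -0.731 to 0.864.

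Between TPN and Control, no difference of the 4 tested rows passed the test, and the difference in means was smaller than the spread between rats. The mean of miR-101a-3p was 3415 ± 2964 CPM in TPN rats and 4899 ± 4940 CPM in Control rats (SD, n = 5 and 6), and that of miR-101b-3p was 30219 ± 22253 CPM in TPN rats and 47848 ± 43798 CPM in Control rats. The mean of miR-374-5p was 223 ± 122 CPM in TPN rats and 296 ± 154 CPM in Control rats, and that of miR-374-3p was 5.0 ± 1.06 CPM in TPN rats and 5.84 ± 1.19 CPM in Control rats. On the log2(CPM + 1) scale, TPN minus Control was -0.40 ± 0.63 (SE) for miR-101a-3p, with a limma 95% interval of -1.77 to 0.96 and an adjusted p of 0.738. It was -0.49 ± 0.60 for miR-101b-3p (-1.78 to 0.80, limma adjusted p = 0.635). It was -0.42 ± 0.41 for miR-374-5p (-1.30 to 0.47, limma adjusted p = 0.523) and -0.19 ± 0.26 for miR-374-3p (-0.74 to 0.37, limma adjusted p = 0.684). The intervals of the miR-101 rows hold no change, more than a 2-fold lower level in TPN and also a higher level in TPN (upper limits 0.96 and 0.80).

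Across the table limma called 0 of 535 rows (0%) at an adjusted p below 0.05 and 61 (11.4%) at an unadjusted p below 0.05. Of the 4 rows described here, 0 were called in either way. edgeR and limma-voom on the recovered reads called 0% of rows, and DESeq2 called 113 of 522 (21.6%), with none of the 4 rows among them. The median log2 difference of the 280 rat-named rows tested was -0.26 with the deposited scaling and 0.16 with TMM scaling. Relative to the deposited median, the differences were -0.14 for miR-101a-3p, -0.23 for miR-101b-3p, -0.15 for miR-374-5p and 0.08 for miR-374-3p. With TMM scaling miR-101a-3p, miR-374-5p and miR-374-3p took a positive sign, and with upper-quartile scaling miR-101b-3p did too. Without Control 19 the difference was 0.0096 for miR-101a-3p and -0.11 for miR-101b-3p, and without TPN 6 it was -0.82 and -0.84. Without Control 5, Control 12 and Control 19 it was 0.26 for miR-101a-3p, 0.11 for miR-101b-3p, -0.32 for miR-374-5p and -0.26 for miR-374-3p.

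Within rats numbered below 10 (2 TPN, 2 Control), TPN minus Control was 0.32 for miR-101a-3p, -0.02 for miR-101b-3p, -0.45 for miR-374-5p and -0.22 for miR-374-3p. Within rats numbered 10 or more (3 TPN, 4 Control) it was -0.96, -0.89, -0.54 and -0.17 in the same order of rows. None of these passed the adjusted test. For miR-144-3p, which has bases 2 to 7 of miR-101, the difference was -1.21 with a limma adjusted p of 0.296. None of the 5 similar and 3 opposite rows was called either, with limma adjusted p from 0.316 to 0.990. Of the 15 tested rows of the Ezh2 list, which takes either arm, 0 were called. A negative difference was found for 14 of them, with a median of -0.40. Over the 280 rat-named rows 222 were negative (79.3%), with a median of -0.26. With TMM scaling 6 of the 15 were negative and their median was 0.05, against 97 negative (34.6%) and a median of 0.16 over the 280 rat-named rows.

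**Figure D5:**
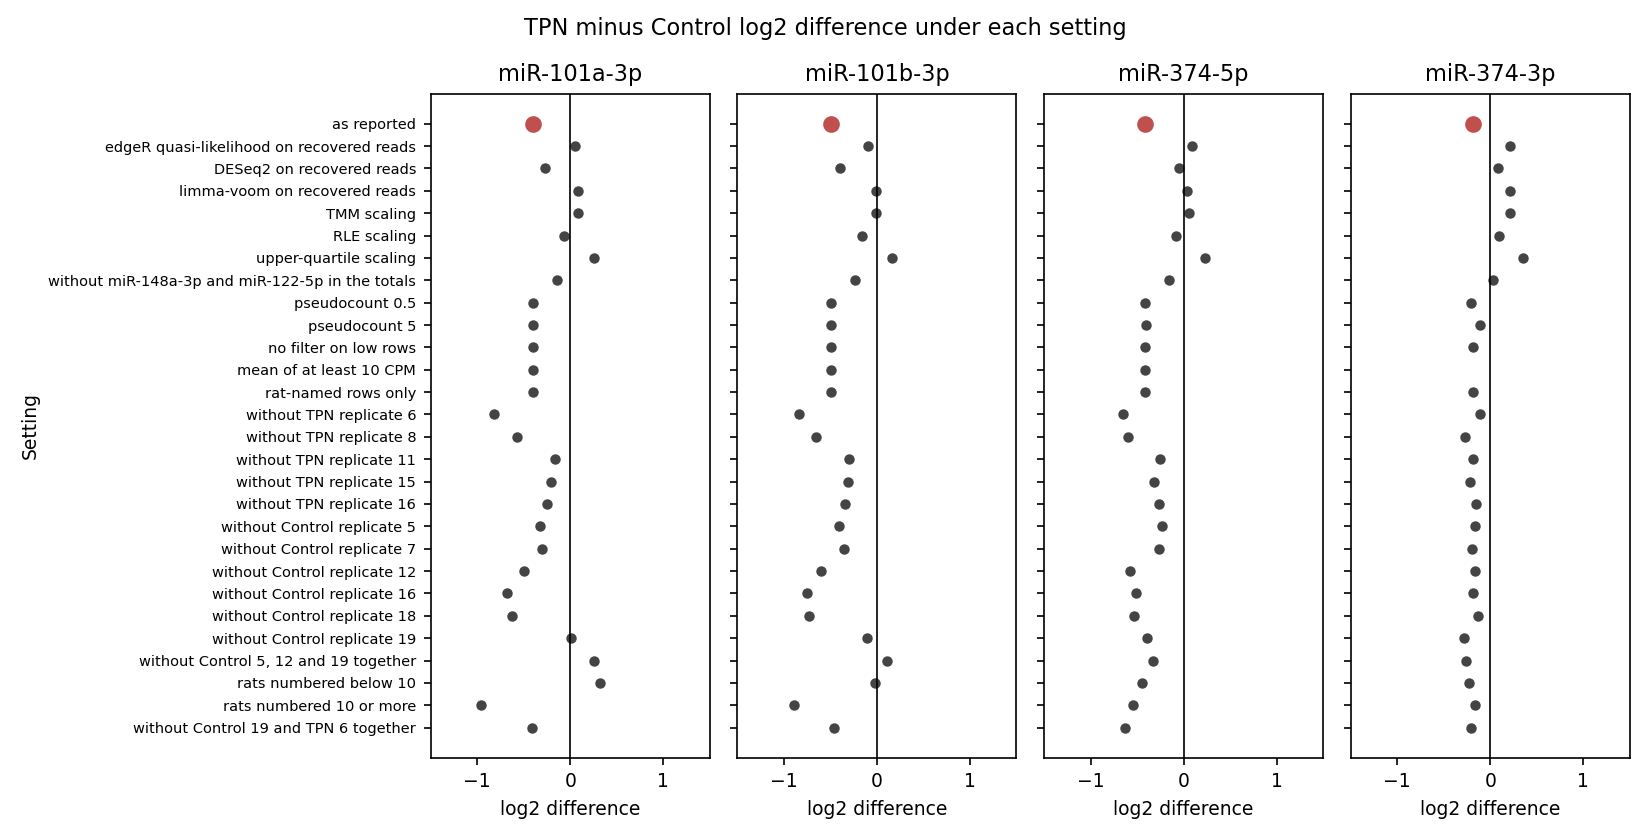
TPN minus Control log2 difference of each tested row (x axis) under each processing setting (y axis), 1 panel per row, with the value as reported as a large red point and the other settings as small points. The reported values are -0.40, -0.49, -0.42 and -0.19 from left to right, and the sign of each row turns under at least 1 setting.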

How the data were processed

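Small RNA of 11 rat livers (5 TPN, 6 Control) was extracted with TRIzol and sequenced on the Illumina HiSeq platform, per the labels. Values were deposited by the authors as CPM in a single table with a column for each rat. DESeq2 is named without a version or role in the submitters' processing notes. The sources used here do not give the aligner, the counting, the build or the filters. Reads were recovered from the CPM steps, and 100% of values came out whole within 0.001 reads. Between the closest libraries the chi-square per degree of freedom was 142, so none was counted as a repeat. Each library is labelled as a separate numbered rat.

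limma-trend 3.58.1 (R 4.3.3) was fitted to log2(CPM + 1) of the 535 rows averaging at least 1 CPM, over all rats with no covariate, with Benjamini-Hochberg adjustment over all rows. As alternatives, recovered reads were tested with edgeR 4.0.16, limma-voom and DESeq2 1.42.0, of which edgeR called 168 rows and limma-voom 14 at an unadjusted p below 0.05. The 2 read ratios were tested by exact permutation. Scalings, filters, pseudocounts and omitted libraries were also tried. Subsets by rat number and without Control 19 and TPN 6, and correlations with the pattern without Control 5, 12 and 19, were chosen after seeing the data. Rows and lists were chosen with earlier results of these data known. Named rows are both arms of miR-101a, miR-101b and miR-374, the 5 most similar and 3 most opposite rows, and rows with bases 2 to 7 of a member. List rows are given by count and range. The most abundant rows of some lists, miR-126a and the hairpins named in the closing section were singled out after their values were seen. Sequences are from RefSeq (GRCr8). The fits were tested on simulated data with 200 of 535 rows changed 4-fold. limma-trend recovered 37.5% of these, edgeR 44%, limma-voom 42.5% and DESeq2 55%, so many changes of that size would be missed. Of the calls 7.4%, 4.3%, 1.2% and 6.8% were false, in the same order. With no row changed, DESeq2 called 2 rows and the other fits 0. The simulated rows varied independently of each other, unlike the rows of the table, so these rates may not hold for it. Clopper-Pearson intervals and limits for a count of 0 cover counting error only, while limma's intervals reflect the spread between rats. Figures were drawn with matplotlib 3.10.9.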

Additional observations from a re-analysis of the deposited data

Results flagged for a closer look

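Control 19 stood far above the other 5 Control rats in miR-101a-3p, with 14513 CPM, against 4902 CPM in the next rat, Control 7. The same rat stood apart in miR-101b-3p, with 130030 CPM, against 56601 CPM in Control 7. Both were marked for the size of the gap to the next rat, among 12 sets of values examined (the 4 tested rows and 2 read ratios in each group). The gap was 0.728 of the range for miR-101a-3p and 0.634 for miR-101b-3p, against a limit of 0.625. Gaps were taken on CPM and on plain ratios. On the log2 scale used for the spread they are smaller parts of the range, and the marks were not examined there. The rate of about 1 in 20 at which chance marks a group does not apply to rows chosen for their spread between rats, so the marks are descriptions and not a test. Control 19 held 2929983 reads and had 0.560% of predicted microRNAs.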

How the results depend on the processing

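None of the 4 rows was called under any of the 27 alternatives, and both read ratios kept their direction in the 13 that bear on them, although single rats moved their size (0.019 to 0.131 for miR-101a-3p to miR-101b-3p, -0.53 to -0.033 for the miR-374 arms). TPN minus Control turned positive for miR-101a-3p with edgeR (0.054), limma-voom (0.085), TMM (0.079) and upper-quartile scaling (0.25), without Control 5, 12 and 19 (0.26) and in rats numbered below 10 (0.32), and leaving out 1 rat gave -0.82 to 0.0096. It turned positive for miR-101b-3p with upper-quartile scaling (0.16) and without Control 5, 12 and 19 (0.11). It turned positive for miR-374-5p with edgeR (0.086), limma-voom (0.041), TMM (0.064) and upper-quartile scaling (0.23). It turned positive for miR-374-3p with edgeR (0.22), DESeq2 (0.089), limma-voom (0.21), TMM (0.21), RLE (0.095) and upper-quartile scaling (0.36), and without miR-148a-3p and miR-122-5p in the totals (0.033). The SD between rats moved to 0.49 for miR-101a-3p and 0.39 for miR-101b-3p in rats numbered below 10, and to 0.81 and 0.82 without Control 19 and TPN 6. For miR-374-5p it was 0.63 with RLE, 0.62 without miR-148a-3p and miR-122-5p, 0.15 in rats numbered below 10 and 0.32 in the others. For miR-374-3p it was 0.35 with upper-quartile scaling and 0.35 in rats numbered below 10, 0.43 without miR-148a-3p and miR-122-5p, 0.16 with a pseudocount of 5 and 0.17 without Control 19 and TPN 6. Without Control 5, 12 and 19, r with miR-374-5p was 0.968 for miR-101a-3p and 0.979 for miR-101b-3p, and r between the miR-374 arms was -0.608 with RLE and 0.218 without Control 19 and TPN 6. The cause of these shifts was not tested. A filter at 10 CPM leaves no value for miR-374-3p. DESeq2 called 113 rows of the table and the other tests 0. Depth limits miR-374-3p and the 5p arms of miR-101. No paired analysis was possible because the groups share only the number 16.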

Other observations

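Arms of the same hairpin did not always share one direction along the pattern of miR-101 and miR-374. Of 28 hairpins with both arms averaging at least 10 CPM, 15 had arms whose r with the 3 rows had opposite signs, and in 10 of these both were at least 0.5 in size. For comparison, 92 of the 165 other rows (55.8%) had a positive r, so opposite signs are common among rows in general and nothing particular to arms was shown. Without Control 5, 12 and 19 the number was again 15. For miR-28, r was -0.867 for the 5p arm and 0.930 for the 3p arm. For miR-145 it was 0.903 for the 5p arm and -0.819 for the 3p arm, and for miR-122 it was -0.982 for the 5p arm and 0.567 for the 3p arm. For miR-30a both arms were positive (0.989 and 0.585). These correlations over 11 rats are descriptions and share library and scaling.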
